A study of Mus musculus with 12 samples.

Results

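The complement genes described here were 9 genes given by name and found by their NCBI Gene numbers, not by their measured values: C1qa, C1qb, C1qc, C3, C4b, Cfb, Cfi, C3ar1 and Cd55. All 9 were among the 27179 genes of the expression table, and all 9 were among the 14972 genes tested, which reached at least 1 TPM (transcripts per 1000000, a level scaled for gene length and library size) in at least 3 of the 12 libraries. The libraries were made from whole kidneys of 4 groups of 3 mice, wild-type or FAN1KO, given saline or cisplatin. The mice are described as 8 to 12 weeks old, which the study states as the age when injected, on a background given as "Mixed". FAN1KO mice (γGT1-Cre;Fan1-/-) lose Fan1, a nuclease of DNA crosslink repair, where the Ggt1 promoter drives Cre, that is in proximal tubule cells, so the other cells of the kidney keep the gene. Cisplatin, a crosslinking drug that injures the proximal tubule, was injected into the peritoneum once a week at 2 mg/kg for 5 weeks, and the other mice received saline. The study asks how kidneys without FAN1 respond to cisplatin, a model of karyomegalic interstitial nephritis.

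Complement is a cascade of plasma and cell surface proteins. C1q, built from the chains A, B and C, recognises antibody complexes and dying cells and starts the classical pathway, in which C4 and C2 form an enzyme that cuts C3. Factor B (Cfb) forms the corresponding enzyme of the alternative pathway, which amplifies C3 cleavage, factor I (Cfi) destroys the active C3b and C4b fragments, CD55 takes the C3-cutting enzymes apart on cell surfaces, and C3ar1 is the receptor of the C3a peptide. Most plasma complement is made in the liver, C1q is made chiefly by macrophages and dendritic cells, and kidney tubule cells are known to make C3 and factor B.

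Several of these genes are neighbours. C1qb (chr4:136880126-136886200), C1qc (chr4:136889801-136892936) and C1qa (chr4:136895916-136898844, all in GRCm38.p6) lie within 18719 bases of chromosome 4. C4b (chr17:34728139-34743902) and Cfb (chr17:34856374-34862514) lie in the MHC region of chromosome 17. C3 (chr17:57203967-57228136) is on the same chromosome but far from them and not in that region. RefSeq start sites of the same build matched 5 of the 9 members (C1qb, C1qc, C3, C3ar1 and Cd55). The 250 bases before the start are printed for C1qb and C1qc, as 2 genes of 1 cluster whose levels moved together, for C3, which had the largest difference of the 9, and for C3ar1, the receptor gene of a C3 product. The start that RefSeq gives for C1qc lies inside the annotated span of the gene, so that window reaches into it. All 4 lie on the minus strand and are written 5′ to 3′ along the gene, and capitals mark the matches described after them.

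C1qb, chr4:136886201-136886450: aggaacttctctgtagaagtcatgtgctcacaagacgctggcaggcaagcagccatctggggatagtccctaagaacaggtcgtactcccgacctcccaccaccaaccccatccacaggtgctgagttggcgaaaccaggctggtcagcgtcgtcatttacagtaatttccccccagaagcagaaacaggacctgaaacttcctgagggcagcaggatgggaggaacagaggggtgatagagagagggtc

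C1qc, chr4:136892915-136893164: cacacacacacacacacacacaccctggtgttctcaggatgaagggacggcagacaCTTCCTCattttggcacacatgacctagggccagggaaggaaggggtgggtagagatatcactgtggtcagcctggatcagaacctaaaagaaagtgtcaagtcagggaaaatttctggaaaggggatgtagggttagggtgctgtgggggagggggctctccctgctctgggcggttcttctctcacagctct

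C3, chr17:57228137-57228386: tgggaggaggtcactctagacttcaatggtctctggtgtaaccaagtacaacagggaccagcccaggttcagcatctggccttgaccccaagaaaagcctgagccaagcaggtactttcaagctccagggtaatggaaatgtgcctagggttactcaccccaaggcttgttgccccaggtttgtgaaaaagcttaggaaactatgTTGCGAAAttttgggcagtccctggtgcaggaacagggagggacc

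C3ar1, chr6:122856158-122856407: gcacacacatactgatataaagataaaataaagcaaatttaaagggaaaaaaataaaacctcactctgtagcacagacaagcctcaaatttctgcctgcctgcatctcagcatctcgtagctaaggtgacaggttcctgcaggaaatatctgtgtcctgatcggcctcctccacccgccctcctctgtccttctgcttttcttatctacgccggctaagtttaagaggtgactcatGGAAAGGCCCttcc

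Short patterns were searched on both strands of these windows: GGG and TTTCC with 2 bases of any kind between them for NF-kB, TTCNNNGAA (GAS) for STAT proteins, GAAA followed by 2 bases of any kind and GAAA again (ISRE) for interferon-regulated factors, TTGCNNAA for C/EBP proteins and GAGGAAG for PU.1, a factor of macrophages. The C3 window held the C/EBP pattern from base -45 to base -38 counted from the start, a pattern found in 9.56% of all 32851 promoter windows of the same length. The C1qc window held the PU.1 pattern on the other strand from -194 to -188 (10.6% of all windows), and the C3ar1 window held the NF-kB pattern on the other strand from -14 to -5 (1.41% of all windows). No match overlapped another. The C1qb and Cd55 windows held none of the 5 patterns, and the GAS and ISRE patterns, present in 7.02% and 2.98% of all windows, were in none of the 5 windows. A match is a description of letters and not of binding.

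The libraries held 37201916 to 82947187 reads assigned to genes, as recovered from the steps of the TPM values. Fan1 itself, measured over the whole kidney, was at 3.80, 3.35 and 1.98 TPM in wild-type saline, 1.17, 1.54 and 2.28 in FAN1KO saline, 2.33, 3.57 and 3.32 in wild-type cisplatin and 2.72, 3.51 and 1.55 in FAN1KO cisplatin libraries, so the ranges overlapped and the level does not check the genotype labels. Proximal tubule markers were abundant in every group, with sums between 7947 and 12076 TPM outside FAN1KO cisplatin and 2430 to 5209 TPM in it. RNA of Y-linked genes was present in 4 libraries, replicate 3 of wild-type saline and of FAN1KO cisplatin and replicate 1 of the other 2 groups, with a mean log2(TPM + 1) of 3.46 to 3.93 against at most 0.10 in the other 8. These 4 libraries stood apart for many genes, so the counts of members called are given below also for the 8 libraries without Y-linked RNA.

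The C1q chains were highest in FAN1KO kidneys given cisplatin. C1qa was at 14.2, 21.8 and 10.6 TPM in wild-type saline, 8.86, 27.2 and 26.0 in FAN1KO saline, 9.13, 45.8 and 34.5 in wild-type cisplatin and 175, 77.5 and 55.8 in FAN1KO cisplatin libraries. C1qc was at 12.0, 16.1 and 5.85 TPM, then 5.26, 22.2 and 18.5, then 6.93, 32.2 and 26.3, then 112, 47.1 and 29.9 in the same order of groups and mice. Every FAN1KO cisplatin library was above every FAN1KO saline library for both genes, whereas FAN1KO cisplatin replicate 3 lay below wild-type cisplatin replicate 2 for C1qc. C1qb was at 5.15, 7.13 and 2.48 TPM, then 1.35, 10.2 and 7.08, then 4.20, 14.0 and 10.5, and then 45.5, 19.4 and 15.9. Per length, C1qa RNA was 1.18 to 1.87 times C1qc RNA and 2.17 to 6.54 times C1qb RNA over the 12 libraries, with the highest ratio in FAN1KO saline replicate 1.

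With cisplatin in FAN1KO kidneys all 3 C1q genes rose, by 2.24 ± 0.62 (SE, limma; adjusted p = 0.0171) for C1qa, 2.08 ± 0.62 (adjusted p = 0.0233) for C1qb and 1.96 ± 0.68 (adjusted p = 0.0421) for C1qc on the log2(TPM + 1) scale, n = 3 mice a group, beside 34.9% of all genes tested that were called higher in this comparison. In bulk tissue, more cells of a type and more RNA per cell cannot be told apart. FAN1KO exceeded wild-type kidneys under cisplatin by 1.85 ± 0.62 (C1qa, adjusted p = 0.0544), 1.39 ± 0.62 (C1qb, adjusted p = 0.130) and 1.51 ± 0.68 (C1qc, adjusted p = 0.131), none of which passed the threshold of 0.05, beside 19.6% of all genes that were called higher. The C1qa difference between genotypes was called without wild-type cisplatin replicate 2 (2.28, adjusted p = 0.0398), FAN1KO saline replicate 1 (adjusted p = 0.0402) or FAN1KO cisplatin replicate 3 (2.20, adjusted p = 0.0461), and by voom on recovered reads (2.04, adjusted p = 0.0323). With other libraries left out, the adjusted p of this difference was up to 0.210. Single libraries also decided the calls of the rise. Without FAN1KO saline replicate 1 the rise had an adjusted p of 0.0688 (C1qa), 0.0832 (C1qb) and 0.159 (C1qc), and without FAN1KO cisplatin replicate 1, the library with the most C1q, it had 0.0776, 0.102 and 0.169. The C1qc call was also lost under scaling by the median ratio (1.55, adjusted p = 0.0677), with no filter on low values (adjusted p = 0.0618), and without wild-type saline replicate 1 (0.0561), wild-type saline replicate 2 (0.0501), FAN1KO saline replicate 3 (0.0567), wild-type cisplatin replicate 3 (0.0513) or FAN1KO cisplatin replicate 2 (0.0808).

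**Figure D1:**
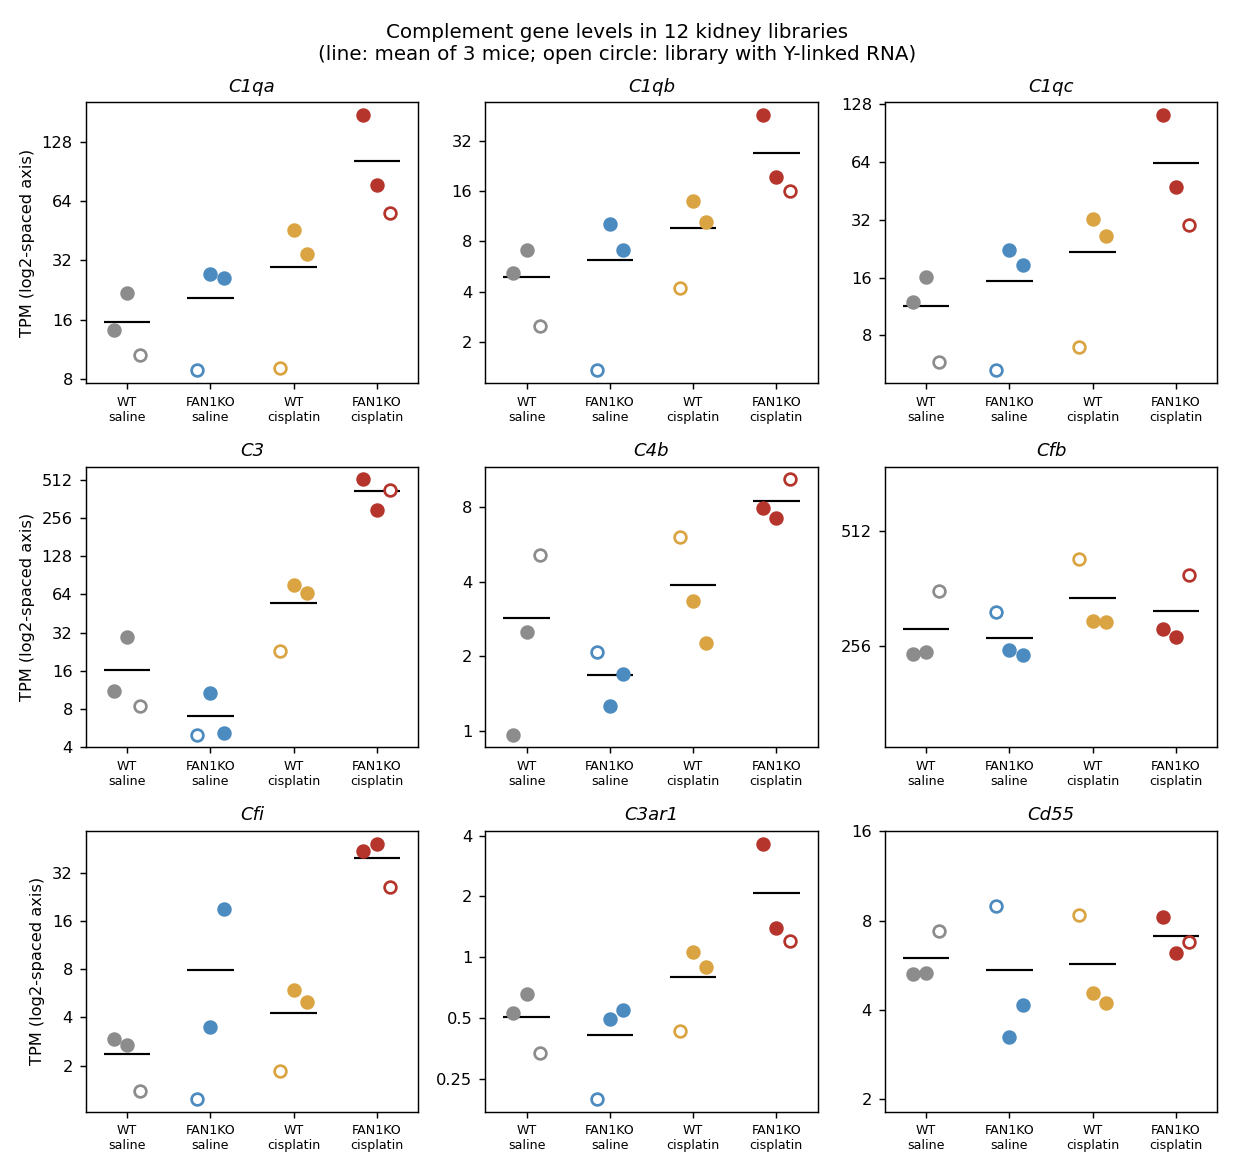
TPM of the 9 complement genes in each of the 12 kidney libraries on a log2-spaced axis, by group, with the mean of 3 mice as a line and the library with Y-linked RNA of each group as an open circle. C3 lies between 299 and 518 TPM in the 3 FAN1KO cisplatin libraries and at most 76.3 TPM in the other 9, whereas Cfb stays between 243 and 432 TPM in all 12.

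Markers of macrophages moved beside the C1q genes. In cisplatin against saline in FAN1KO kidneys 7 of the 12 macrophage markers were called higher and 1 lower (34.9% and 4.90% of all genes), with summed TPM of 77.3 to 154 under saline and 250.1 to 511 under cisplatin. The markers named here were picked from that list after their values were seen. Cd68, a lysosomal protein of macrophages, rose by 2.47 (adjusted p = 0.00436) and Cx3cr1, the fractalkine receptor, by 2.15 (adjusted p = 0.00210), while Csf1r, the growth factor receptor that macrophages depend on, differed by 0.09 (adjusted p = 0.843) and Adgre1 (F4/80) by 0.46 (adjusted p = 0.421), and Mertk, a receptor for dying cells, fell by 0.71 on the log2 scale (adjusted p = 0.0192, and 0.0604 in the leave-one-out fit that weakened it most). Under cisplatin 3 of the 12 (Cd68 with an adjusted p of 0.0499, Cd14 with 0.0386 and Cx3cr1 with 0.0164, calls held in 3, 6 and 10 of the 12 fits that left out 1 library) were called higher in FAN1KO than in wild-type kidneys, a share near the 19.6% of all genes, and the summed level was 99.3 to 273 TPM in wild-type kidneys. All 12 markers were detected in every library. The listed dendritic and MHC class II genes summed to 204 to 980.3 TPM in FAN1KO saline and 1226 to 2622 TPM in FAN1KO cisplatin libraries, with 3 of the 4 tested called higher (34.9% of all genes), in 4 to 8 of the 12 fits that left out 1 library. Their part in the C1q differences was not tested.

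C3, the protein on which all complement pathways converge, had the largest difference of the 9 genes. It was at 11.1, 29.3 and 8.49 TPM in wild-type saline, 5.00, 10.7 and 5.18 in FAN1KO saline, 22.7, 76.3 and 66.0 in wild-type cisplatin and 518, 299 and 431 in FAN1KO cisplatin libraries, where it rested on 34400 to 55621 reads. The 3 FAN1KO cisplatin libraries were far above all others, and wild-type cisplatin replicate 1 lay below wild-type saline replicate 2. The mean TPM was 59.7 times that of FAN1KO saline and 7.56 times that of wild-type cisplatin. C3 was higher by 5.75 ± 0.52 in cisplatin against saline in FAN1KO kidneys (SE, adjusted p = 8.38e-05), the fourth highest value of the 14972 genes, and by 3.03 ± 0.52 between FAN1KO and wild-type kidneys under cisplatin (adjusted p = 0.00346), which was rank 24 counted from the highest value. Both calls held in every alternative fit that was run, with an adjusted p of at most 0.0196 in the comparison of genotypes.

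In wild-type kidneys cisplatin left C3 1.71 ± 0.52 higher, which did not pass adjustment (adjusted p = 1, unadjusted p under 0.05), and the 3 values overlapped those of saline. The difference between the 2 responses was itself tested as the genotype by cisplatin interaction, which for C3 was 4.03 ± 0.73 (adjusted p = 0.0160), with an adjusted p of 0.0238 to 0.0495 when each library was left out in turn and an estimate of 3.62 (adjusted p = 0.0187) in the 8 libraries without Y-linked RNA. Of the 9, C3 alone was called in the interaction by limma on all 12 libraries, beside 5.22% of all genes called higher and 1.02% called lower. For the other 8 the interaction ran from -0.05 (Cfb, adjusted p = 0.933) to 2.15 (Cfi, adjusted p = 0.187), with C1qa at 1.55 (adjusted p = 0.306) and C4b at 1.41 (adjusted p = 0.142). Under saline the mean of C3 was 6.97 ± 3.26 TPM (SD, n = 3) in FAN1KO and 16.3 ± 11.3 TPM in wild-type kidneys, a difference that did not pass the test (adjusted p = 0.700).

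Tubule injury genes were high in the same libraries as C3, as were acute phase genes, whereas hepatocyte markers were mixed. Lcn2, an iron-binding protein released by injured tubules, was at 517, 350 and 265 TPM in FAN1KO cisplatin libraries and at most 42.1 TPM in the other groups, and Havcr1 (KIM-1), the injury receptor of the proximal tubule, was at 373, 243 and 679 TPM against at most 64.9 TPM. All 4 injured tubule markers were called higher in FAN1KO than in wild-type kidneys under cisplatin, beside 19.6% of all genes. The 5 hepatocyte markers summed to 40.3 to 58.4 TPM in FAN1KO cisplatin and 30.4 to 242 TPM in wild-type cisplatin libraries. Of the 4 tested, 2 were higher and 2 lower between these groups (-1.52 to 1.80), with 1 called higher. Acute phase genes, most of them known as liver products, summed to 259 to 312 TPM in FAN1KO cisplatin libraries and at most 67.9 TPM in the others. Of 7 proximal tubule markers 5 were called lower in FAN1KO than in wild-type kidneys under cisplatin, beside 4.37% of all genes. The part of these shifts in C3 was not tested.

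C4b, the classical pathway protein that forms the C3-cutting enzyme with C2, was a low gene. It was at 0.962, 2.50 and 5.10 TPM in wild-type saline, 2.07, 1.26 and 1.69 in FAN1KO saline, 6.05, 3.35 and 2.26 in wild-type cisplatin and 7.90, 7.26 and 10.4 in FAN1KO cisplatin libraries. The 3 FAN1KO cisplatin libraries were above the other 9. C4b rose with cisplatin in FAN1KO kidneys by 1.83 ± 0.39 (adjusted p = 0.00478) and differed from wild-type kidneys under cisplatin by 1.02 ± 0.39 (adjusted p = 0.0800), a value called without wild-type saline replicate 1 (adjusted p = 0.0441) or replicate 3 (0.0396). Leaving out other libraries gave an adjusted p of up to 0.216 for the difference from wild-type kidneys. Reads of C4b are hard to separate from those of its near-identical neighbour C4a, so both levels are uncertain.

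Cfb, the protease of the alternative pathway enzyme, was the most abundant of the 9 in 3 of the 4 groups and was called in no comparison of all 12 libraries by the group means alone. It was at 245, 248 and 357 TPM in wild-type saline, 316, 249.5 and 243 in FAN1KO saline, 432, 297 and 296 in wild-type cisplatin and 285, 271 and 392 in FAN1KO cisplatin libraries. All groups overlapped, and within each group the library with Y-linked RNA was the highest. FAN1KO and wild-type kidneys under cisplatin differed by -0.11 ± 0.21 (adjusted p = 0.732), and cisplatin and saline in FAN1KO kidneys by 0.22 ± 0.21 (adjusted p = 0.433), a value that turned to -0.22 under scaling by the median ratio. With the Y-linked level as a covariate the same difference was 0.20 and was called (adjusted p = 0.0284).

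Cfi, the protease that inactivates C3b and C4b, was at 2.96, 2.69 and 1.40 TPM in wild-type saline, 1.24, 3.51 and 19.1 in FAN1KO saline, 1.84, 5.94 and 5.03 in wild-type cisplatin and 43.7, 48.8 and 26.1 in FAN1KO cisplatin libraries. The last 3 were above all others, and FAN1KO saline replicate 3 stood well above its group. Cfi was higher by 2.99 ± 0.67 in FAN1KO than in wild-type kidneys under cisplatin (adjusted p = 0.0108) and by 2.74 ± 0.67 in cisplatin against saline in FAN1KO kidneys (adjusted p = 0.00926). Both calls held without each library in turn, with an adjusted p of at most 0.0469. The interaction was 2.15 ± 0.94 (adjusted p = 0.187), and without FAN1KO saline replicate 3 it was 3.04 (adjusted p = 0.0396). Its adjusted p was up to 0.356 with other libraries left out. The gene (chr3:129836727-129875332) overlaps Gm36180, and whether the counting used strand is not given in the sources used here.

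C3ar1 (chr6:122847140-122856157), a receptor carried by macrophages and other myeloid cells, was the lowest of the 9. Its level was 0.531, 0.660 and 0.334 TPM in wild-type saline, 0.199, 0.497 and 0.549 in FAN1KO saline, 0.433, 1.06 and 0.890 in wild-type cisplatin and 3.65, 1.39 and 1.21 in FAN1KO cisplatin libraries, resting on 25 to 328 reads a library. The last 3 libraries were above the other 9. C3ar1 passed the filter on low values only through 4 libraries given cisplatin, and the pseudocount of 1 understates its fold. It rose by 1.05 ± 0.28 with cisplatin in FAN1KO kidneys (adjusted p = 0.0136, and 0.0523 without FAN1KO saline replicate 1) and was 0.71 ± 0.28 higher than in wild-type kidneys under cisplatin (adjusted p = 0.0878, 0.0491 without FAN1KO cisplatin replicate 3, and up to 0.297 without other libraries).

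Cd55 (chr1:130429798-130465009), the membrane inhibitor, was at 5.26, 5.31 and 7.37 TPM in wild-type saline, 8.98, 3.23 and 4.15 in FAN1KO saline, 8.37, 4.54 and 4.22 in wild-type cisplatin and 8.23, 6.22 and 6.77 in FAN1KO cisplatin libraries. The groups overlapped in every comparison. The differences were 0.31 ± 0.32 between genotypes under cisplatin (adjusted p = 0.507) and 0.42 ± 0.32 between treatments in FAN1KO kidneys (adjusted p = 0.318). In the 8 libraries without Y-linked RNA these were 0.60 (adjusted p = 0.0273) and 0.81 (adjusted p = 0.00589). The gene overlaps Cd55os and has a close copy, Cd55b, at 0.190 to 1.25 TPM.

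Counted over the members, 7 of the 9 were called higher and none lower in cisplatin against saline in FAN1KO kidneys, where 34.9% of all genes tested were called higher and 4.90% lower, and the members' median difference was 1.96 beside 0.37 for all genes. The 3 values of FAN1KO cisplatin lay above the 3 of FAN1KO saline for the same 7 genes, as they did for 47.4% of all genes. Between genotypes under cisplatin 2 of the 9 (C3 and Cfi) were called higher and none lower, a share near that of all genes (19.6% higher, 4.37% lower), with a median of 1.39 beside 0.24, and 6 of the 9 did not overlap (35.7% of all genes). C3ar1, counted among the 7 and among the 6, passed the filter on low values only through libraries given cisplatin, most of them FAN1KO. Its part in these counts therefore carries no weight. The 2 comparisons share the FAN1KO cisplatin libraries. The median of all genes was above 0 in both, and scaling by the median ratio moved it to -0.01, which changed the split of calls over all genes from 5229 higher and 733 lower to 2333 and 2047 between treatments in FAN1KO kidneys, and from 2931 and 654 to 1389 and 1155 between genotypes under cisplatin. Under that scaling 6 and 2 members were called higher in these comparisons.

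**Figure D2:**
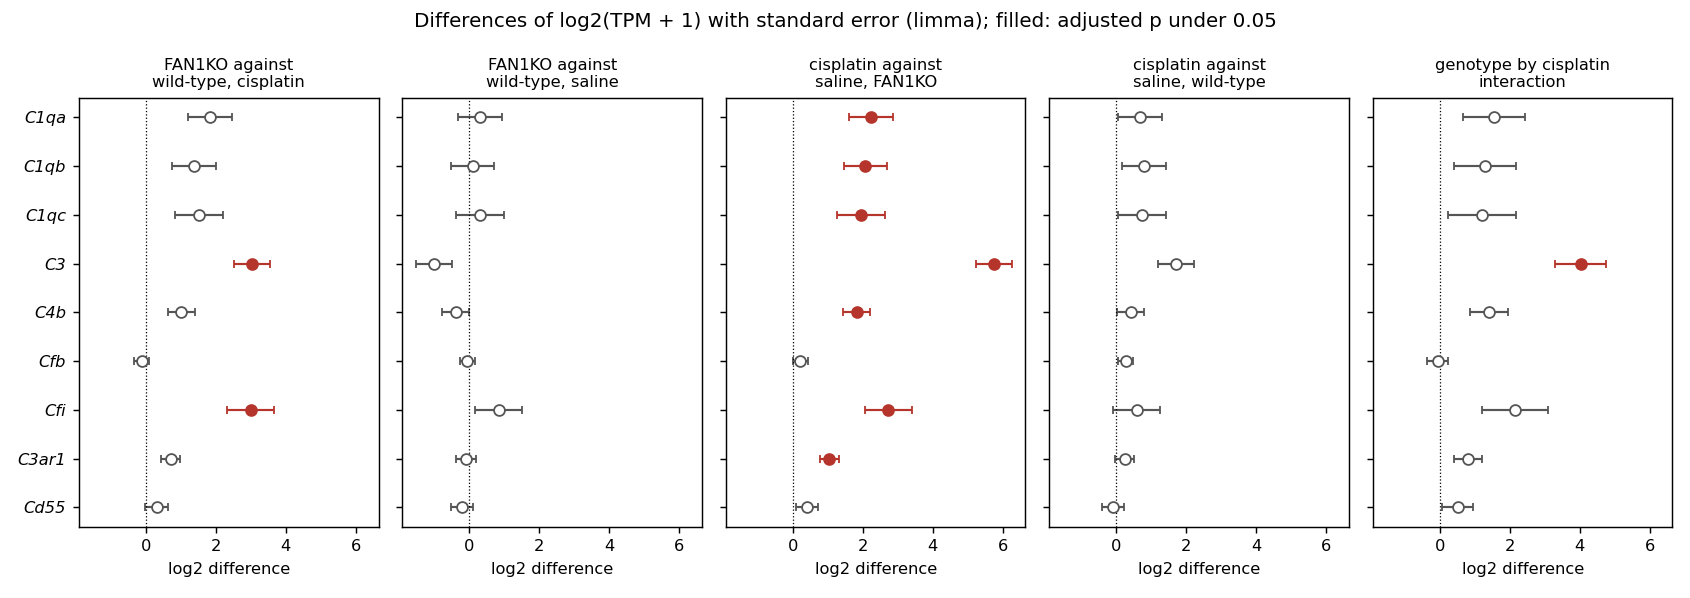
Difference of log2(TPM + 1) for the 9 complement genes in 4 comparisons of groups and in the genotype by cisplatin interaction, with the standard error of limma as bars and filled points where the adjusted p was under 0.05. The 7 filled points of cisplatin against saline in FAN1KO kidneys run from 1.05 (C3ar1) to 5.75 (C3), and no point is filled in the comparisons under saline or within wild-type mice.

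The libraries with and without Y-linked RNA changed these counts. In the 8 libraries without it, 7 of the 9 were called higher in FAN1KO than in wild-type kidneys under cisplatin (C1qa, C1qb, C1qc, C3, C4b, Cfi and Cd55, beside 28.9% of all genes), 8 were called higher in cisplatin against saline in FAN1KO kidneys (beside 44.4%) and 2, C3 and Cd55, in the interaction (beside 13.4%). With all 12 libraries and the Y-linked level as a covariate, the counts were 7 (beside 40.3%), 8 (beside 52.9%) and 5 (beside 27.3%). Leaving out single libraries gave 3 to 7 members called between treatments in FAN1KO kidneys, with 3 without FAN1KO saline replicate 1 and 4 without FAN1KO cisplatin replicate 1, where the share of all genes called in either direction was 27.4% and 24.2% instead of 39.8%. The count was 2 to 4 between genotypes under cisplatin, with 4 without FAN1KO cisplatin replicate 3, where that share was 23.7% instead of 23.9%.

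Under saline no member was called between FAN1KO and wild-type kidneys by limma, none had an unadjusted p under 0.05 and neither voom on recovered reads nor limma on the 8 libraries without Y-linked RNA called any, beside 0.768% of all genes called. The values overlapped between the groups for all 9, whereas 12.5% of all genes did not overlap, and the differences ran from -0.999 (C3) to 0.85 (Cfi). In cisplatin against saline in wild-type kidneys limma, on all 12 or the 8 libraries, and voom again called none of the 9, 1 (C3) had an unadjusted p under 0.05, and 0.0601% of all genes were called. All 9 again overlapped (6.28% of all genes did not), and the differences ran from -0.10 (Cd55) to 1.71 (C3). An exact permutation test of 3 against 3 mice cannot give a p below 0.1, so it can pass no single gene here.

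The makeup of the members' RNA by group is given as a description, with no test. The 9 genes summed to 343 ± 51.8 TPM (SD, n = 3) in wild-type saline, 334 ± 12.5 in FAN1KO saline, 473 ± 23.6 in wild-type cisplatin and 981 ± 211 in FAN1KO cisplatin libraries. Cfb made up 82.1 ± 7.62%, 80.4 ± 8.78%, 72.1 ± 13.9% and 33.0 ± 8.49% of that sum in the same order, and C3 4.88 ± 3.47%, 2.10 ± 1.02%, 11.8 ± 6.21% and 42.0 ± 3.18%. C3 RNA exceeded Cfb RNA in each FAN1KO cisplatin library, at 1.10 to 1.82 times, and reached at most 0.257 times Cfb in the other 9. By mean TPM the order in wild-type saline was Cfb (283), C3 (16.3), C1qa (15.5), C1qc (11.3), Cd55 (5.98), C1qb (4.92), C4b (2.86), Cfi (2.35) and C3ar1 (0.508), where all neighbours from C3 to Cfi had overlapping values. In FAN1KO cisplatin it was C3 (416), Cfb (316), C1qa (103), C1qc (62.9), Cfi (39.5), C1qb (26.9), C4b (8.51), Cd55 (7.07) and C3ar1 (2.08), with overlap between C3 and Cfb, among C1qa, C1qc, Cfi and C1qb as neighbours, and between C4b and Cd55.

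**Figure D3:**
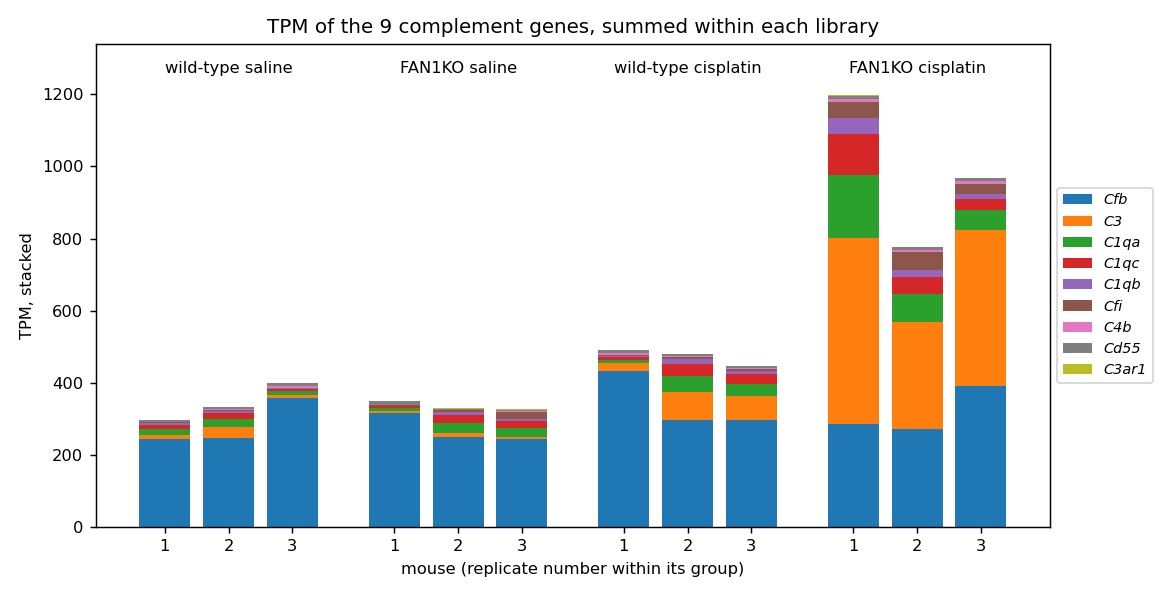
Stacked TPM of the 9 complement genes in each of the 12 libraries, by group and replicate number. The sum lies between 297 and 491 TPM in 9 libraries, where Cfb takes the largest part, and between 777 and 1198 TPM in the 3 FAN1KO cisplatin libraries, where C3 does.

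Members, like many other genes, also differed between libraries with and without Y-linked RNA. With the Y-linked level as a covariate over all 12 libraries, its term was called for 8 of the 9, beside 55.8% of all genes. The term was higher with Y-linked RNA for C4b, Cfb and Cd55, beside 6.29% of all genes. It was lower for C1qa, C1qb, C1qc, Cfi and C3ar1, a share near the 49.5% of all genes called lower. Between the mean Y-linked levels of the 2 kinds of library the fitted difference was 0.48 for Cfb (adjusted p = 0.000185), 0.70 for C4b (adjusted p = 0.0111) and 0.56 for Cd55 (adjusted p = 0.0152). It was -1.52 for C1qc (adjusted p = 0.000465) and -1.19 for Cfi (adjusted p = 0.0151), and for C3 it was -0.73 (adjusted p = 0.0761). In each of the 4 groups the library with Y-linked RNA was the highest of 3 for Cfb and C4b and the lowest of 3 for the C1q genes, Cfi and C3ar1. C4a, known in mice as sex-limited protein, was at 4.34, 2.40 and 3.35 TPM in the libraries with Y-linked RNA of the first 3 groups and at most 0.874 TPM in all others, FAN1KO cisplatin replicate 3 (0.656) included. Only 1 library a group held Y-linked RNA, so anything else that sets those 4 mice apart cannot be told apart from it.

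**Figure D4:**
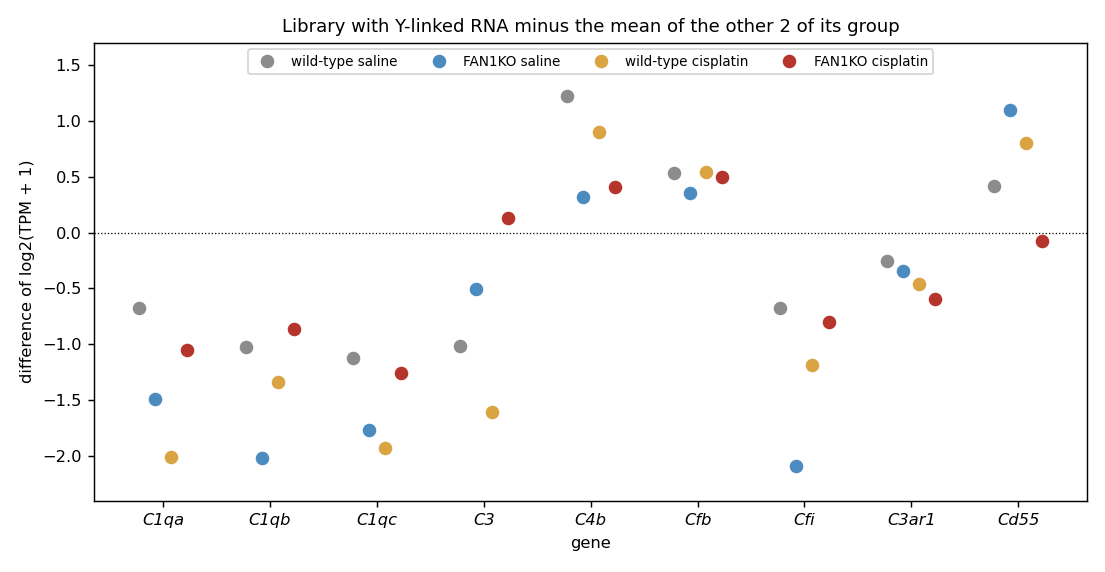
Difference of log2(TPM + 1) between the library with Y-linked RNA and the mean of the other 2 libraries of its group, for the 9 complement genes and 4 groups. The 4 points of Cfb lie between 0.36 and 0.54 and those of C4b between 0.32 and 1.22, while those of C1qa, C1qb, C1qc, Cfi and C3ar1 are all below 0.

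A list of 40 other complement genes gave the rest of the pathway, and 25 of them passed the filter on low values. Under cisplatin, 4 of these were called higher (Masp1, C4bp, Clu and Cd59a) and 2 lower (Mbl1 and C8a) in FAN1KO than in wild-type kidneys, beside the 19.6% and 4.37% of all genes, and their median was 0.25. Between treatments in FAN1KO kidneys 9 were called higher and 1 lower, a share near the 34.9% higher and 4.90% lower of all genes, with a median of 0.75 beside 0.37 for all genes. Under scaling by the median ratio the split was 7 higher and 3 lower. Masp1 and C4bp reached 1 TPM in the 3 FAN1KO cisplatin libraries and in no other, so they passed the filter through the group where they are high, and their part in these counts carries no weight. That count of 10 was 6 without FAN1KO saline replicate 1, 3 without FAN1KO cisplatin replicate 1 and 5 without FAN1KO cisplatin replicate 2. The calls of Clu in both comparisons and of Mbl1 held without each library in turn. So did the calls of Masp1 and C4bp, but these fits kept the filter set on all 12 libraries. For these 2 genes that carries no weight either. Those of C1ra, C1rb, Cfp, C7, C8g, Itgam and Itgax were lost without FAN1KO cisplatin replicate 1 (adjusted p = 0.0534 to 0.138), as were C8a and Cd59a (0.0856 and 0.150), and all of these but Itgam, C8a and Cd59a were lost without FAN1KO saline replicate 1. Limma called no other complement gene under saline or within wild-type mice, and voom called none either, although 2 and 1 of them reached an unadjusted p under 0.05.

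Among the genes that start the cascade, C1ra and C1rb, which encode the C1r protease, rose with cisplatin in FAN1KO kidneys by 1.48 ± 0.50 (adjusted p = 0.0385) and 1.22 ± 0.37 (adjusted p = 0.0241). C1ra and C1rb are paralogs whose reads may be split between them. Masp1, a protease of the lectin pathway, was at 0.0498 to 0.625 TPM in the 9 libraries outside FAN1KO cisplatin and at 2.67, 2.41 and 1.56 TPM in FAN1KO cisplatin libraries, on 95 to 154 reads. The fitted difference from wild-type kidneys under cisplatin was 1.23 ± 0.23 (adjusted p = 0.00493), for a gene that entered the test through the FAN1KO cisplatin libraries alone. Masp1 also overlaps other annotated genes, and whether the counting used strand is not given. Mbl1, a mannose-binding lectin that also starts the lectin pathway, went the other way, at 9.26, 6.82 and 8.87 TPM in wild-type cisplatin and 3.00, 2.46 and 3.86 TPM in FAN1KO cisplatin libraries (-1.18 ± 0.22, adjusted p = 0.00450). C2, the partner of C4, next to Cfb on chromosome 17, differed by 0.24 ± 0.29 between genotypes under cisplatin (adjusted p = 0.568), with a sign that turned under scaling by the median ratio.

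In the alternative pathway, Cfp (properdin), which stabilises the C3-cutting enzyme, rose by 1.51 ± 0.46 with cisplatin in FAN1KO kidneys (adjusted p = 0.0251). Cfd (adipsin), a product of fat cells, was at 11.9, 239 and 16.7 TPM in wild-type saline, 1.56, 0.0907 and 0.130 in FAN1KO saline, 41.2, 50.8 and 0.726 in wild-type cisplatin and 0.259, 0.531 and 23.0 in FAN1KO cisplatin libraries. Under saline the FAN1KO values lay below the wild-type values without overlap, on 42, 2 and 3 reads, and the difference of -4.69 ± 1.55 did not pass adjustment (adjusted p = 0.335), nor did any other comparison of this gene. Of the terminal pathway genes, which form the membrane pore, C7 was at 1.15, 1.79 and 1.42 TPM in FAN1KO saline and 17.9, 9.39 and 3.98 TPM in FAN1KO cisplatin libraries (2.03 ± 0.58, adjusted p = 0.0185). C8a was at 11.3, 27.8 and 29.2 TPM in wild-type cisplatin and 7.11, 6.22 and 5.70 TPM in FAN1KO cisplatin libraries (-1.59 ± 0.47, adjusted p = 0.0330), and C8g fell by 0.90 on the log2 scale with cisplatin in FAN1KO kidneys (adjusted p = 0.0295). C7, C8a and C8g each overlap another annotated gene, with the use of strand not given. The genes Hc (C5), C6, C8b and C9 did not pass the filter, and Hc reached 0.215 TPM at most.

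Receptor genes with enough RNA to test were the integrin chains of complement receptors 3 and 4. Itgam and Itgax rose with cisplatin in FAN1KO kidneys by 1.38 ± 0.36 (adjusted p = 0.0122) and 1.25 ± 0.40 (adjusted p = 0.0310), and neither was called between genotypes under cisplatin (0.70 and 0.72, adjusted p = 0.174 and 0.214). Itgb2, the chain that both receptors share, differed by 0.71 ± 0.54 between treatments in FAN1KO kidneys (adjusted p = 0.311) and by 0.05 ± 0.54 between genotypes under cisplatin (adjusted p = 0.950), a sign that turned under scaling by the median ratio. The C5a receptors C5ar1 and C5ar2, as well as Cr2 and Vsig4, did not pass the filter, with at most 1.21, 0.295, 0.847 and 0.0630 TPM.

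Among the regulators, Clu (clusterin), an inhibitor of the terminal pore and a stress protein of tubules, had the highest mean TPM of the complement genes in every group, at 543, 533 and 193 TPM in wild-type saline, 270, 473 and 474 in FAN1KO saline, 281, 486 and 483 in wild-type cisplatin and 2911, 2427 and 1164 in FAN1KO cisplatin libraries. It was higher in FAN1KO than in wild-type kidneys under cisplatin by 2.32 ± 0.46 (adjusted p = 0.00645), and its interaction was 2.28 ± 0.65 (adjusted p = 0.0624). C4bp, which binds C4b and helps factor I, rested on 2 to 17 reads a library outside FAN1KO cisplatin and on 146, 145 and 72 reads in it, at 3.71, 3.43 and 1.73 TPM. Cd59a, which blocks the pore on cell membranes, was at 39.8, 44.6 and 45.8 TPM in wild-type cisplatin and 116, 120.1 and 64.3 TPM in FAN1KO cisplatin libraries (1.14 ± 0.36, adjusted p = 0.0418, and 0.111 under scaling by the median ratio). Serping1 (C1 inhibitor), which blocks the proteases of the first step, differed by 0.01 ± 0.64 between genotypes under cisplatin (adjusted p = 0.995). Its sign turned under scaling by the median ratio, and it ran from 13.3 to 23.4 TPM in the 4 libraries with Y-linked RNA and from 28.1 to 85.2 TPM in the other 8. The membrane regulators Cd46 and Cr1l, which overlap each other on chromosome 1, and Cd59b were not called in any comparison.

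**Figure D5:**
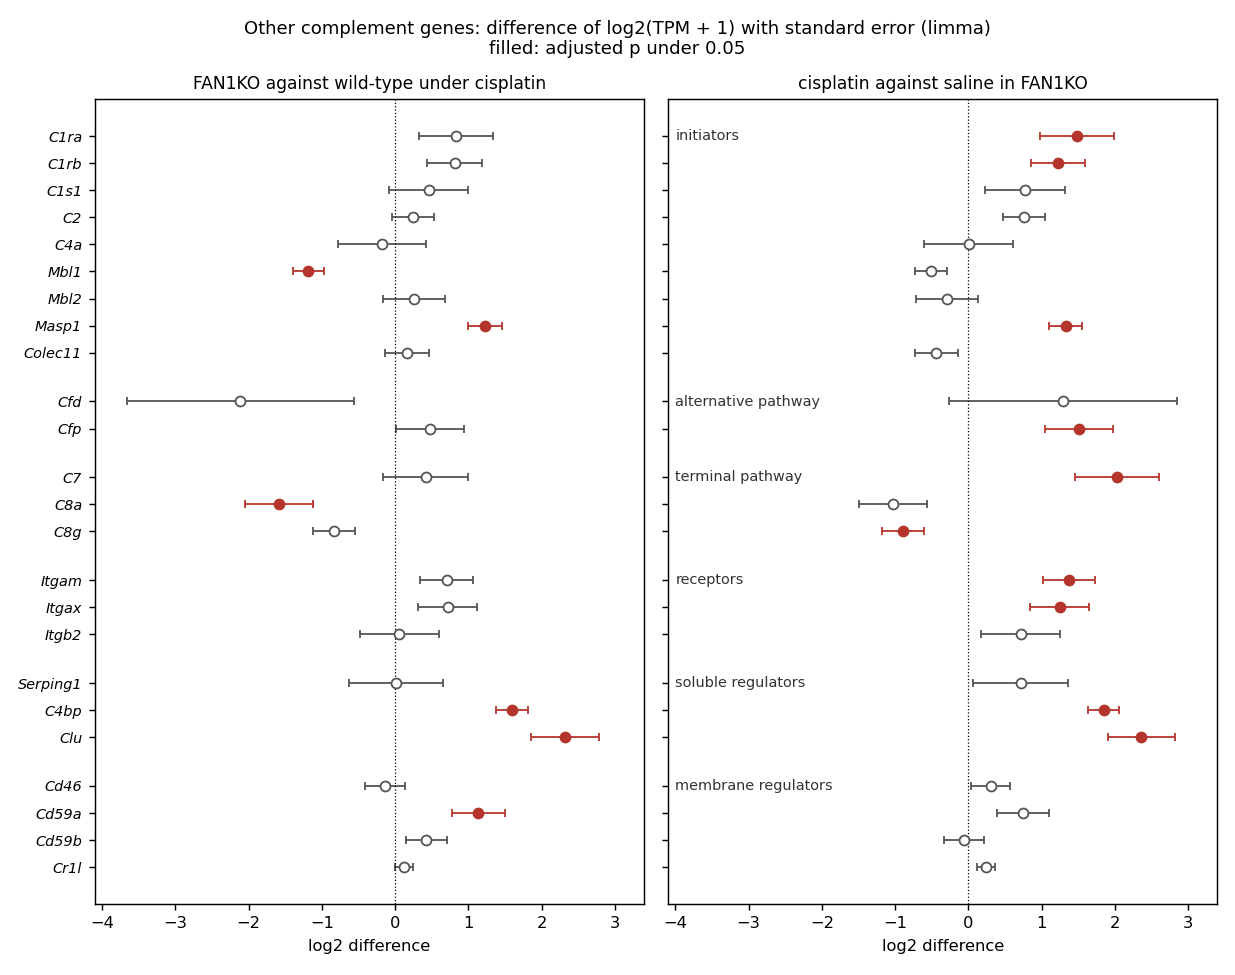
Difference of log2(TPM + 1) with the standard error of limma for other complement genes tested, by role, between genotypes under cisplatin and in cisplatin against saline in FAN1KO kidneys, filled where the adjusted p was under 0.05. Clu (2.32 and 2.36) and C4bp (1.59 and 1.85) are filled on the right of 0 in both, and Mbl1 and C8a on the left in the comparison of genotypes. C4bp passed the filter on low values only through the FAN1KO cisplatin libraries, in which it is high, so its filled points carry no weight.

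The genes whose log2(TPM + 1) profiles over the 12 libraries were most like those of the members, by Pearson correlation among tested genes outside the complement lists, are given as a description, since the 12 points fall into 4 groups and share library differences. For the mean of the C1q genes they were Fgd2 (r = 0.992), Rit1 (0.988) and Psmb8 (0.986), and for C3 they were Lcn2 (0.989), Stx4a (0.986) and Relb (0.981). C3ar1 was most like Fgr (0.982), Ms4a6d (0.981) and Slc11a1 (0.981), and Cfi most like Bcas2 (0.985), Pmm2 (0.973) and Hmgb2 (0.969). The nearest profiles to C4b were Syngr2 (0.950), Nsfl1c (0.949) and Scamp3 (0.948), to Cfb St3gal3 (0.913) and Prps1l3 (0.894), and to Cd55 Nploc4 (0.970), Adh7 (0.956) and Prkd3 (0.929).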

How the data were processed

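The authors deposited 1 table of TPM values (transcripts per 1000000, the sum of each of the 12 columns) for 27179 NCBI Gene numbers, of which 25275 were matched to a symbol. The notes of the submitters name the mm10 build and limma. The aligner, the annotation and the use of strand are not given in the sources used here. No column of values was left out.

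Samples were grouped by their labels, 3 mice in each of 4 groups. Genes had to reach 1 TPM in 3 or more libraries, which left 14972, and their log2(TPM + 1) values were fitted with limma 3.58.1 (R 4.3.3) as 4 group means with a mean-variance trend, and p-values were adjusted by Benjamini-Hochberg over all genes tested, two-sided, with a threshold of 0.05. The ± of a difference is the standard error of this fit. The fold understates the change of low genes. In simulated data for the comparison of genotypes under cisplatin, 193 of 200 genes changed 2-fold were recovered among 14516 genes, with 25 unchanged genes called. In this draw unchanged genes were a larger share of the calls than the threshold of 0.05 aims at. The simulated reads had the same set spread for every gene and no difference between libraries but depth. This checks the code, and does not give the share of changes found for genes that vary more between mice.

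The TPM values of 19497 of 19497 genes with a value above 0 in at least 6 libraries were whole multiples of 1 read (tolerance 0.02 reads), while 1 of 500 genes moved at random was. The reads so recovered, 37201916 to 82947187 a library, served for limma voom, and 1 read in a gene of 1 kb was worth 0.0200 to 0.0479 TPM. Alternatives were a pseudocount of 0.1, no filter, scaling by the median ratio, the replicate number as a block, a Y-linked covariate, no trend, only the libraries compared, and each library left out. The 8 libraries without Y-linked RNA and the term of that covariate were chosen after the data were seen.

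The members, the list of other complement genes, the marker lists and the rule for named genes (these lists, Fan1, Havcr1, Lcn2 and the 3 nearest profiles of each member) were chosen with earlier results of these data known, and a few listed genes are not reported here. Sequences came from RefSeq for GRCm38.p6, the patch release of mm10. Python 3.11.15 with numpy 2.4.6, pandas 2.3.3, scipy 1.17.1 and matplotlib 3.10.9 was used for the rest.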

Additional observations from a re-analysis of the deposited data

Results flagged for a closer look

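The response to cisplatin differed between the genotypes for 1 member, C3. Its interaction of genotype and cisplatin in limma was 4.03 on the log2(TPM + 1) scale (adjusted p = 0.0160). Of the 25 other complement genes tested 2 were also called, C4bp and Masp1, but these calls carry no weight for the reason given below. Of all genes tested 5.22% were called higher in the interaction and 1.02% lower. C4bp had an interaction of 1.60 (adjusted p = 0.0195) on 2 to 17 reads a library outside FAN1KO cisplatin, and it was not called without wild-type saline replicate 1 (adjusted p = 0.0550) or FAN1KO cisplatin replicate 2 (adjusted p = 0.0540). Masp1 had an interaction of 1.32 (adjusted p = 0.0423), which was lost in 10 of the 12 fits that left out 1 library (adjusted p up to 0.107). C4bp and Masp1 passed the filter on low values only through the 3 FAN1KO cisplatin libraries, in which they are high. Neither was called with a pseudocount of 0.1 or by voom on recovered reads. All 3 genes were highest in the 3 FAN1KO cisplatin libraries.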

How the results depend on the processing

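Of 540 values of the members with 1 library left out, 500 kept their direction and side of the threshold, 21 changed sign, 12 lost and 7 gained a call, and of 396 under other settings 373, 2, 3 and 18 did. Leaving out single libraries gave 2 to 4 members called between genotypes under cisplatin, 3 to 7 between treatments in FAN1KO kidneys, 1 to 2 in the interaction and 0 to 0 in the other comparisons, and among the other complement genes 4 to 7, 3 to 11, 0 to 3 and 0 to 0. The share of all genes called in these fits was 10.3% to 25.6% between genotypes under cisplatin. It was 24.2% to 42.7% between treatments in FAN1KO kidneys and 1.80% to 7.99% in the interaction.

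With the Y-linked covariate, 7 members were called between genotypes under cisplatin and 5 in the interaction, with 11 other complement genes between genotypes under cisplatin, 17 between treatments in FAN1KO kidneys and 7 in the interaction. Of all genes tested 48.9%, 61.1% and 31.6% were called in these comparisons, in either direction. The 8 libraries without Y-linked RNA gave 7 members between genotypes under cisplatin and 2 in the interaction, beside 28.9% and 13.4% of all genes called higher. For the interaction of other complement genes, of which the fit of all libraries called 2, the count was 0 with a pseudocount of 0.1, 0 by voom on recovered reads and 1 with median-ratio scaling, since Masp1 was lost there (adjusted p = 0.0582). The causes were not tested.

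Same-numbered libraries of different groups did not vary together (mean correlation of their deviations -0.243 to -0.144), and the labels tie the numbers to nothing shared. With the replicate block 2, 6 and 1 members were called between genotypes under cisplatin, between treatments in FAN1KO kidneys and in the interaction, C1qc being lost in the second (adjusted p = 0.0522), with 6, 9 and 1 other complement genes. In the same order 19.7%, 36.5% and 2.83% of all genes were called.

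Signs changed only among differences of the members that were not called with all libraries. Cfb between treatments in FAN1KO kidneys was -0.22 with median-ratio scaling, and Cfb between genotypes under saline was 0.0014 in the 8 libraries. With 1 library left out, Cfb ran from -0.28 to 0.069 between genotypes under cisplatin and from -0.23 to 0.13 in the interaction, and Cd55 from -0.36 to 0.059 between treatments in wild-type mice. Between genotypes under saline the ranges were -0.36 to 0.77 for C1qb, -0.077 to 0.89 for C1qc, -0.80 to 0.016 for C4b, -0.18 to 0.12 for Cfb, -0.042 to 1.54 for Cfi, -0.18 to 0.019 for C3ar1 and -0.57 to 0.05 for Cd55.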

Other observations

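Acute phase genes, most of them known as liver products under the control of interleukin-6, moved with C3. Of the 7 tested of a list of 10, 6 were called higher in FAN1KO than in wild-type kidneys under cisplatin and 7 in cisplatin against saline in FAN1KO kidneys, where 19.6% and 34.9% of all genes were called higher. In the interaction 4 of the 7 were called higher, beside 5.22% of all genes. The summed level of the list was 259 to 312 TPM in FAN1KO cisplatin libraries and 25.9 to 67.9 TPM in the other 9. Fgg, a fibrinogen chain, was 3.47 higher on the log2(TPM + 1) scale in FAN1KO than in wild-type kidneys under cisplatin (adjusted p = 3.08e-05), Saa3, a serum amyloid A, 3.13 higher (adjusted p = 0.000481), and Hp, haptoglobin, 0.69 higher (adjusted p = 0.445).

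Of 10 tested cytokine and transcription factor genes known to act on complement genes, 2 were called higher between genotypes under cisplatin, Stat3 (1.28, adjusted p = 0.00801) and Relb (1.61, adjusted p = 0.00686), a share near the 19.6% of all genes. In cisplatin against saline in FAN1KO kidneys 7 were called higher (34.9% of all genes), Relb by 2.80 (adjusted p = 0.000260), Cebpb by 2.04 (adjusted p = 0.00366) and Spi1, which encodes PU.1, by 1.37 (adjusted p = 0.0437).

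Of the remaining marker lists, red blood cell genes were lower in FAN1KO cisplatin libraries (4 of 4 tested, with sums of 6.56 to 73.3 TPM against 535 to 6571 TPM in the other 9). These 4 were called lower between genotypes under cisplatin and between treatments in FAN1KO kidneys, beside 4.37% and 4.90% of all genes. Between genotypes under cisplatin 1 of 4 hepatocyte genes (Apoa2), 1 of 6 T cell genes (Cd8a) and 1 of 4 dendritic and MHC class II genes (Cd209a) were called higher, beside 19.6% of all genes. In cisplatin against saline in FAN1KO kidneys 1 of 5 endothelial genes (Kdr) and 1 of 4 hepatocyte genes (Alb) were called lower, beside 4.90% of all genes. No neutrophil, B cell and plasma cell, fibroblast or thick ascending limb marker was called by limma in either comparison. The part of these lists in the differences of the complement genes was not tested.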
